A study of Mus musculus with 6 samples.

Results

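The genes described here encode the cytosolic protein-folding machinery of the mouse cell, with its mitochondrial counterparts. They are the HSP70, HSP90, J-domain (DNAJ), TRiC and prefoldin families, small heat shock proteins, BAG co-chaperones and the heat shock transcription factor HSF1. A list of 40 genes was set by name, and 38 of them were measured among the 18193 genes of the arrays. Hsp90ab1 and Hsf1 had no probe set named for them alone in the platform annotation and were not analysed here. Each gene was read from 1 probe set (the group of array probes for 1 transcript), the brightest of those annotated to that gene alone. Hspa9, Hspd1 and Hspe1 act in mitochondria, so the list is wider than the cytosol.

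All arrays came from RAW264.7, an established mouse monocyte-macrophage line that can form osteoclast-like cells. Normal sodium means a medium with 137 mmol/l of sodium (3 arrays), low sodium one diluted to 120 mmol/l (3 arrays), and treatment lasted 24 hours in both. Mannitol held the low-sodium medium at 290 mOsm/l, so tonicity was matched while sodium differed. The labels speak of 4 biological replicates per medium, of which 3 per medium were analysed here, and they name the cytokines M-CSF (10 ng/ml) and RANKL (30 ng/ml) in a wording that does not settle whether both media held them.

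HSP70 proteins bind short hydrophobic stretches of unfolded clients, J-domain proteins deliver the clients and trigger ATP hydrolysis, and nucleotide exchange factors of the HSP110 and BAG families reset the cycle. HSP90 matures kinases and steroid receptors with the help of co-chaperones, while prefoldin hands nascent actin and tubulin to the TRiC ring. HSF1 induces many of these genes under proteotoxic stress through heat shock elements, inverted repeats of GAA and TTC. Osteoclasts rebuild their actin and microtubule cytoskeleton during fusion and resorption, and actin and tubulin depend on TRiC to fold.

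The letters of the heat shock element were looked up in the 250 bases before each gene's start in the RefSeq table of build GRCm38.p6, which held 32 of the 40 genes. The long form searched was GAANNTTCNNGAA on either strand (TTCNNGAANNTTC on the other), and the short form, which lies inside the long one, was GAANNTTC or TTCNNGAA, each its own reverse complement. The long form was present in 3 of the 32 genes and in 0.514% of all 27025 genes in the table, and the short form in 11 and in 14.5%. The windows below are shown because Hspe1, Dnajb6 and Hspa1a carry the element while Stip1 and Bag2 are the members called over all arrays in the batch-term fit described below, and capitals mark the matched letters.
Hspe1: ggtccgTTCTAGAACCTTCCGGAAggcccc
Dnajb6: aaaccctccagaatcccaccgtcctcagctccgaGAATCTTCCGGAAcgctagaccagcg
Hspa1a: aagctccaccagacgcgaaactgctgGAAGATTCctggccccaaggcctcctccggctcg
Stip1: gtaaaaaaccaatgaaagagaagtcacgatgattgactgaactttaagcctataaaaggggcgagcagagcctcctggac
Bag2: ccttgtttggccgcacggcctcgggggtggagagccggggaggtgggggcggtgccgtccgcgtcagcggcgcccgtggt
The Hspe1 window is chr1:55088053-55088082 on the plus strand and holds 18 matched bases, a run of overlapping units between 89 and 72 bases before the start. Hspd1 lies head to head with Hspe1, and the same bases on the minus strand stand between 144 and 127 bases before 1 of its 2 listed starts. The Dnajb6 window is chr5:29735818-29735877 (plus), the Hspa1a window chr17:34972227-34972286 (minus), the Stip1 window chr19:7040027-7040106 (minus) and the Bag2 window chr1:33757751-33757830 (minus). Neither form occurred in the 250 bases before Stip1 or Bag2, which says only that those letters are not in that window.

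The comparison asked how these genes differ between low and normal sodium. They differed little. The median low-minus-normal difference of the 38 genes was -0.11 on the scale of log2(intensity + 1), against -0.01 over all genes, and 27 of the 38 had a lower mean in low sodium against 50.8% of all genes. The size of the difference, whatever its sign, had a median of 0.15 in these genes and 0.30 over all genes, and 1 of the 38 (Dnajb4) differed by over 0.5 against 31.0% of all genes. Most members are bright, 28 of the 38 with a mean log2 of 11 or more (a limit chosen after the values were seen), and among the 2354 genes that bright the median size was 0.18 and 13.2% differed by over 0.5. The arrays measured bulk RNA, in which fewer cells of a type and less RNA per cell cannot be told apart.

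By the planned limma fit, with no batch term, 0 of the 38 genes passed an adjusted p of 0.05, against 0.0055% of all genes, and 1 of the 38 (Bag2) had an unadjusted p under 0.05. Replicate 3 of both media stood apart from the other arrays, so a second limma fit (the batch-term fit) set replicate 3 against replicates 1 and 2 as a batch and used a variance prior that follows intensity. This fit was chosen with earlier results of these arrays known. In it 2 of the 38 genes passed, Stip1 and Bag2, both lower, a share of 5.26% against 7.6% of all genes in either direction and 3.81% in the lower direction. In the higher direction 3.78% of all genes passed. Of the bright genes 22.9% passed in this fit, 11.3% in the lower direction, against 1 of the 28 bright members (3.57%). The words rose and fell in what follows refer to this fit unless another is named.

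The spiked labelling controls show how replicate 3 stood apart, whose mean log2 value was 10.34 in replicates 1 and 2 but 8.52 in replicate 3, while hybridisation controls averaged 12.35 and 12.45. All 8 macrophage markers looked up reached the median log2 value over all probe sets (5.87), and so did 7 of 8 osteoclast markers, all but Calcr. Cd8a, Col1a2, Epcam, Krt8 and Kdr from the lists of other cell types reached it too, so this cut alone does not tell cell types apart. The summed intensity of the macrophage markers was 78848 to 92084 in normal and 84353 to 100906 in low sodium, that of the osteoclast markers 803 to 2193 and 6219 to 7474, and those of T cell, B cell, fibroblast, epithelial and endothelial lists lay between 37.9 and 497. The osteoclast sum was higher on every low-sodium array than on every normal-sodium array. Among its markers only Atp6v0d2 had separate groups. The log2 values of Atp6v0d2 were 8.37, 8.24 and 7.25 in normal and 10.68, 10.82 and 12.59 in low sodium. In the other osteoclast markers the groups overlapped. Ctsk, Mmp9, Dcstamp and Ocstamp were nonetheless higher in low sodium in each replicate number, by 1.15, 1.05, 1.52 and 2.76 over all arrays. These 4 passed the batch-term limma fit (adjusted p = 0.01849, 0.02298, 0.002319 and 0.01035), as did Atp6v0d2 (adjusted p = 0.009257). Acp5, Calcr and Oscar did not pass it, and none of the 8 passed the planned fit. The part of the osteoclast sum in the chaperone results was not tested.

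**Figure D1:**
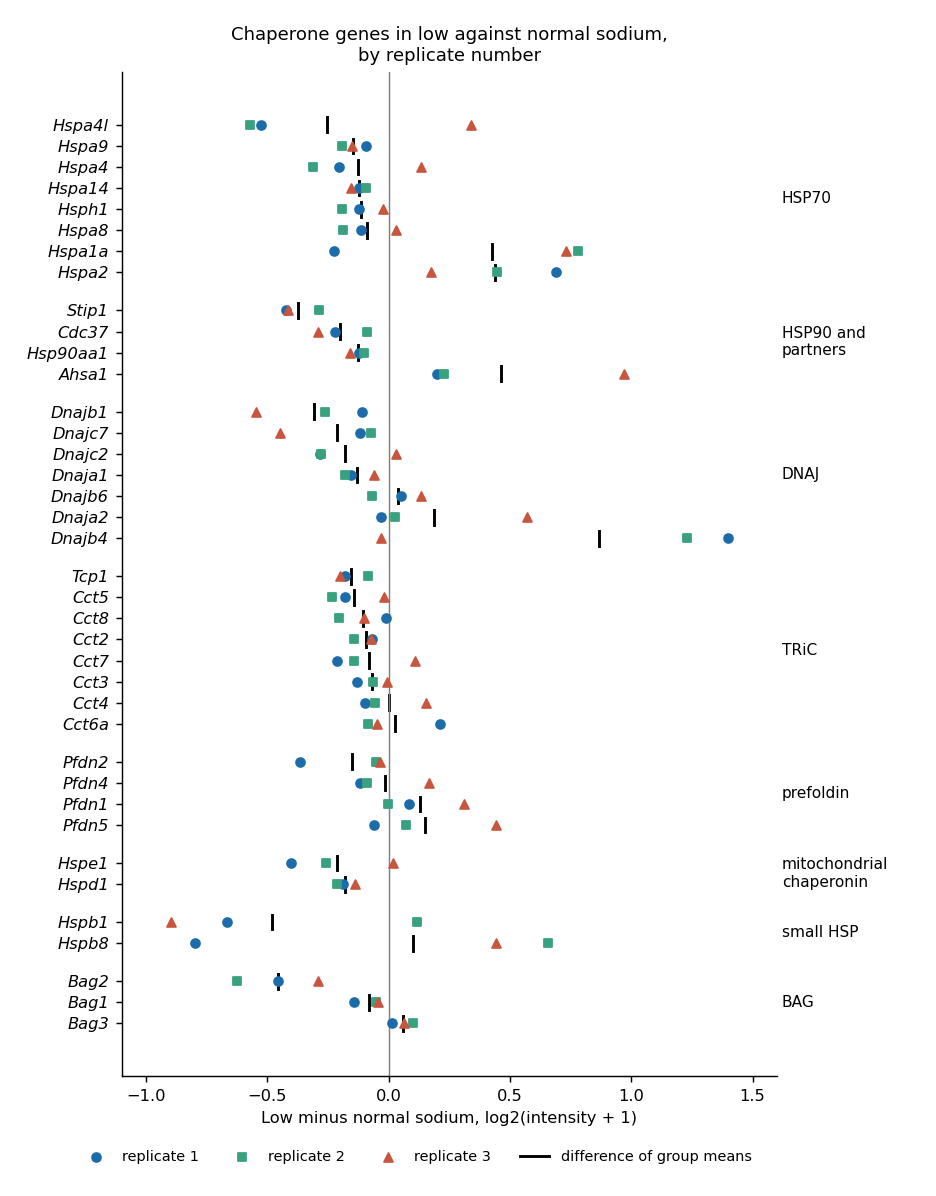
Low-minus-normal difference on the log2(intensity + 1) scale (horizontal) of each of the 38 measured chaperone genes (vertical, by family), 1 symbol for each replicate number and a bar for the difference of the group means. Most symbols lie within 0.5 of 0, Stip1 and Bag2 lie below 0 in all 3 replicate numbers, and Dnajb4 is above 1 in replicates 1 and 2 and at -0.03 in replicate 3.

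Among the HSP90 partners, Stip1 encodes HOP, the adaptor that holds HSP70 and HSP90 together so that a client can pass between them. Its log2 values were 11.50, 11.42 and 11.44 in normal sodium and 11.08, 11.13 and 11.03 in low sodium for replicates 1, 2 and 3. All 3 low-sodium arrays lay below all 3 normal-sodium arrays. Stip1 fell by 0.37 ± 0.07 (SE, n = 3 against 3; adjusted p = 0.0194 in the batch-term fit, 0.615 in the planned limma fit), which is 1.30-fold lower. The differences were -0.35 in replicates 1 and 2 and -0.42 in replicate 3.

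Hsp90aa1, the inducible cytosolic HSP90 gene, had log2 values of 13.60, 13.56 and 13.79 in normal and 13.48, 13.46 and 13.63 in low sodium. For each replicate number the low-sodium array was below the normal-sodium array of that number, but the groups overlapped. The difference was -0.13, with a 95% interval of -0.26 to 0.01 in the batch-term fit, and it did not pass (adjusted p = 0.25). Of its 2 other probe sets with a mean above that overall median (above-median probe sets), 1 had the opposite sign. Cdc37, which recruits kinases to HSP90, differed by -0.20 (adjusted p = 0.116 in the batch-term limma fit), and its 1 other above-median probe set had the opposite sign.

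Ahsa1, whose product stimulates the HSP90 ATPase, was the HSP90 partner with the opposite sign. It is given in full after its values were seen. Its log2 values were 12.75, 12.77 and 12.34 in normal sodium and 12.95, 12.99 and 13.31 in low sodium, so that every low-sodium array was above every normal-sodium array. The difference was 0.46 ± 0.14 (SE, n = 3 against 3) and did not pass in the batch-term limma fit (adjusted p = 0.103), with a 95% interval of 0.13 to 0.80. It was 0.21 in replicates 1 and 2, where a limma fit of those 4 arrays alone with the intensity-following prior called it (adjusted p = 0.0148), and 0.97 in replicate 3. A second probe set of the gene differed by 0.52.

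Among the HSP70 genes, Hspa8 encodes HSC70, the constitutive cytosolic HSP70. Its log2 values were 14.69, 14.73 and 14.59 in normal and 14.58, 14.55 and 14.62 in low sodium, and the groups overlapped. Its difference of -0.09 had a 95% interval of -0.24 to 0.06 in the batch-term fit. Stress-inducible Hspa1a was dim, with log2 values of 5.21, 4.19 and 3.39 in normal and 4.98, 4.97 and 4.11 in low sodium. It was the 1 member whose mean lay below the overall median of probe sets. Its difference of 0.43 had a 95% interval from -0.80 to 1.66 in the batch-term fit, so neither a rise nor a fall could be read from it.

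Hspa2, a cytosolic HSP70 known for its role in the testis, had log2 values of 7.21, 7.16 and 7.13 in normal and 7.90, 7.61 and 7.30 in low sodium. Its arrays are printed after they were seen. The groups did not overlap, yet the difference of 0.44 did not pass (adjusted p = 0.29 in the batch-term limma fit). Ribosome-associated Hspa14 differed by -0.12 and mitochondrial Hspa9 by -0.15, lower in each replicate number and without passing. The 1 other above-median probe set of Hspa14 had the opposite sign.

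The HSP110 proteins act as nucleotide exchange factors of HSP70. Hsph1 had log2 values of 11.91, 11.98 and 11.70 in normal and 11.78, 11.79 and 11.68 in low sodium, a difference of -0.11 with overlapping groups. Hspa4l, named after its values were seen, had 9.81, 9.54 and 9.68 in normal and 9.28, 8.97 and 10.02 in low sodium. It was lower in replicates 1 and 2 (by -0.55 on average) and higher in replicate 3 (by 0.34). Its 4 other above-median probe sets were also higher in replicate 3 and lower in the other 2 replicate numbers, while 3 of them had a mean difference of the same sign as the first. Hspa4 showed the same signs, at -0.26 in replicates 1 and 2 and 0.13 in replicate 3, and its other 2 above-median probe sets were split in sign.

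**Figure D2:**
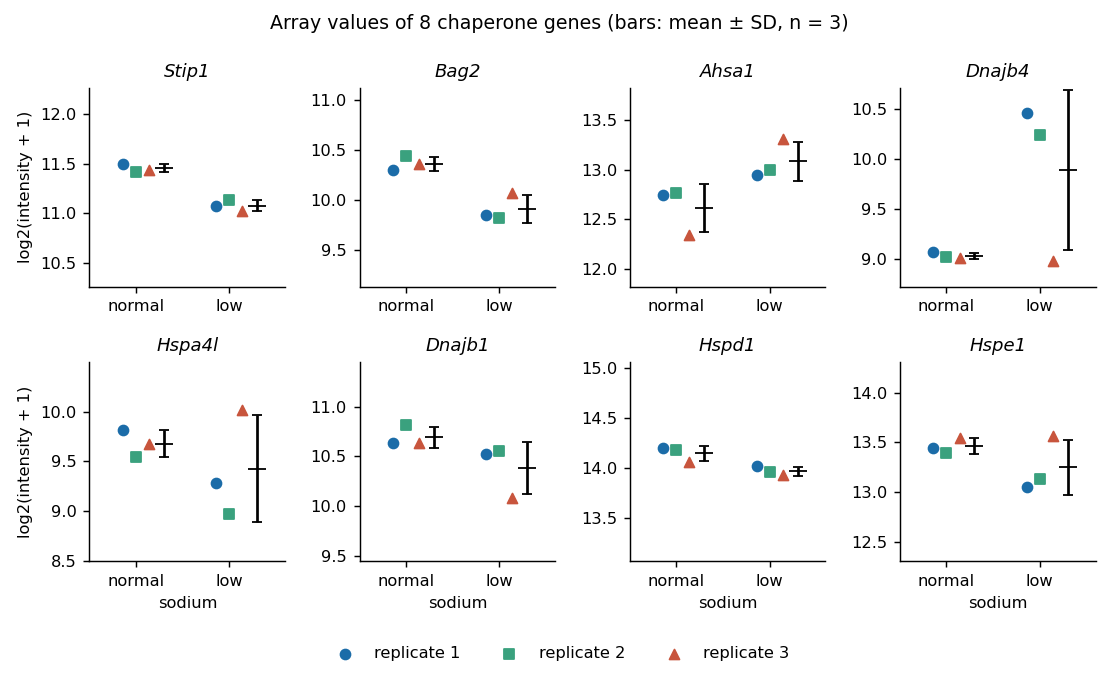
Values on each array as log2(intensity + 1) (vertical) for 8 chaperone genes in normal and low sodium (horizontal), with symbols for the replicate number and bars for mean ± SD of 3 arrays; each panel spans 2 log2 units. The groups are separate in Stip1, Bag2, Ahsa1, Dnajb1 and Hspd1. Replicate 3 in low sodium parts most from the other low-sodium arrays in Dnajb4, Hspa4l, Dnajb1, Hspe1 and Ahsa1.

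The J-domain proteins set the client choice of HSP70. Dnajb4, a cytosolic member related to Dnajb1, had log2 values of 9.06, 9.01 and 9.01 in normal sodium and 10.46, 10.24 and 8.97 in low sodium. It is given in full after its values were seen. In replicates 1 and 2 it was 1.31 higher, and a limma fit of those 4 arrays alone called it (adjusted p = 0.00021), whereas replicate 3 differed by -0.03. Over all arrays the difference of 0.87 ± 0.26 (SE, n = 3 against 3) did not pass the batch-term limma fit (adjusted p = 0.0922). Its second probe set differed by 0.94 and 1.06 in replicates 1 and 2 and by 0.21 in replicate 3, and the remaining one by 0.03 over all arrays.

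Dnajb1, the classical HSP40 and a target of HSF1, differed in the opposite direction. Its log2 values were 10.63, 10.81 and 10.63 in normal and 10.52, 10.55 and 10.08 in low sodium. All low-sodium arrays were below all normal-sodium arrays, and the difference of -0.31 did not pass (adjusted p = 0.13 in the batch-term limma fit). In replicates 1, 2 and 3 Dnajb1 differed by -0.11, -0.26 and -0.55. Dnaja1, which partners HSC70 in the cytosol, had 12.61, 12.63 and 12.46 in normal and 12.45, 12.45 and 12.40 in low sodium, a difference of -0.13 with separate groups that did not pass. Dnajc7, a J-domain protein with TPR repeats that bind both HSP70 and HSP90, differed by -0.21, again with separate groups and without passing. Dnajc2, a ribosome-bound partner of HSP70, differed by -0.18, Dnaja2 by 0.19 and Dnajb6 by 0.04, and the groups overlapped in all 3. Of the 7 J-domain genes 4 had a lower mean and 0 passed.

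TRiC is a double ring of related subunits that folds actin, tubulin and WD40 proteins such as Cdc20. All 8 subunit genes were measured and 0 passed either fit (lowest adjusted p of 0.869 in the planned and 0.196 in the batch-term limma fit). Their differences ran from -0.15 in Tcp1 to 0.03 in Cct6a, with a median of -0.09. Tcp1, which encodes the alpha subunit, had log2 values of 13.72, 13.61 and 13.91 in normal and 13.54, 13.52 and 13.71 in low sodium. Cct2 had 14.09, 14.16 and 14.46 in normal and 14.02, 14.02 and 14.39 in low sodium, where replicate 3 was the highest array of each medium. In Cct2 replicate 3 lay further from the other replicates of its medium than the group means lay from each other.

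Of the 8 subunit genes 7 were lower in replicate 1, 8 in replicate 2 and 6 in replicate 3, with 5 lower in all 3 replicate numbers (62.5%, against 20.7% of all genes and 32.7% of the bright genes, to which all 8 belong). The sizes were small in every case. In the batch-term fit the 95% intervals of the 8 genes lay between -0.30 and 0.20, and in the planned fit between -0.63 and 0.63. Cct5 and Cct7 were called lower in replicates 1 and 2 alone, at -0.21 and -0.18, and differed by -0.02 and 0.11 in replicate 3. Cct8 had separate groups, at a difference of -0.11. Cct4 differed by less than 0.01, with -0.08 in replicates 1 and 2 and 0.15 in replicate 3.

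Prefoldin delivers unfolded actin and tubulin to TRiC. The 4 measured subunit genes among the members had a median difference of 0.06, and 0 passed. With Vbp1 (-0.02) and Pfdn6 (-0.16), subunit genes listed here with the co-chaperones, the median of 6 was -0.02, so the positive sign rests on which subunits are counted. Pfdn2, which belongs to the beta type of subunit, had log2 values of 11.29, 11.23 and 11.04 in normal and 10.92, 11.17 and 11.004 in low sodium, with overlapping groups and a difference of -0.15. Pfdn1 differed by 0.13, Pfdn4 by -0.01 and Pfdn5 by 0.15. In replicate 3 the median of these 4 genes was 0.24, against -0.09 in replicate 1 and -0.03 in replicate 2, and with all 6 it was 0.16, against -0.07 in each of the other replicate numbers. The 95% intervals of the 4 genes lay between -0.36 and 0.38 in the batch-term fit.

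**Figure D3:**
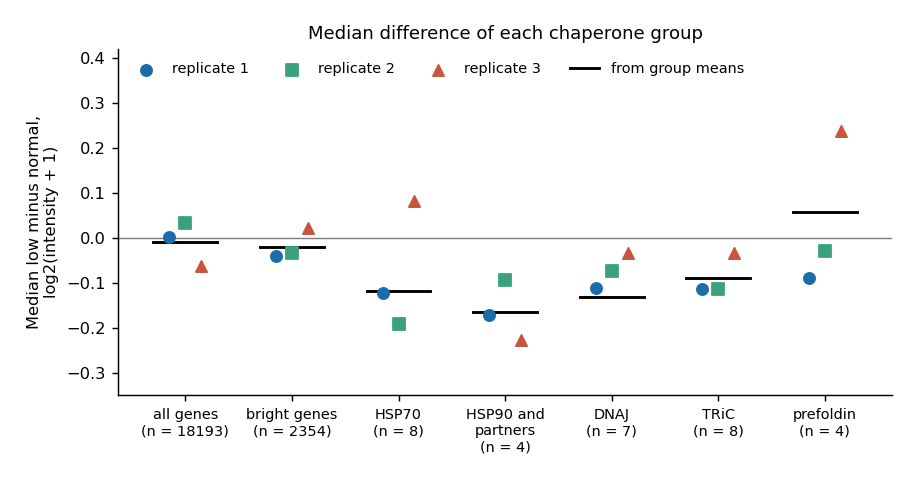
Median low-minus-normal difference on the log2(intensity + 1) scale (vertical) for all genes, for genes with a mean log2 of 11 or more (bright genes) and for the members of 5 chaperone families (horizontal), with symbols for each replicate number and a bar for the group means. The family medians lie between -0.16 and 0.06, and those of HSP70 and prefoldin change sign in replicate 3.

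Set side by side, the family medians were -0.12 for HSP70 with HSP110 (8 genes), -0.16 for HSP90 and its partners (4 genes), -0.13 for J-domain genes (7), -0.09 for TRiC (8) and 0.06 for the 4 prefoldin members (-0.02 over 6 subunits). Within the HSP70 family the median was 0.43 for Hspa1a, Hspa2 and Hspa8 and -0.13 for the 3 HSP110 genes. The value of 0.43 is that of the dim Hspa1a. The sign of the HSP70 median thus rests on which genes are counted. By replicate number the HSP70 median was -0.12, -0.19 and 0.08, and that of HSP90 and partners was -0.17, -0.09 and -0.23. Those of the J-domain genes were -0.11, -0.07 and -0.03, and those of TRiC were -0.11, -0.11 and -0.03. Those of prefoldin were -0.09, -0.03 and 0.24. The ranges of these replicate medians overlapped for every pair of the 5 families but HSP90 with prefoldin, and the differences between families were not tested.

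Of the BAG co-chaperones, which release nucleotide and client from HSP70, Bag2 fell. BAG2 also restrains the ubiquitin ligase CHIP. Its log2 values were 10.30, 10.44 and 10.36 in normal and 9.84, 9.81 and 10.07 in low sodium, and all low-sodium arrays lay below all normal-sodium arrays. Bag2 fell by 0.46 ± 0.09 (SE, n = 3 against 3; adjusted p = 0.0296 in the batch-term fit, 0.593 in the planned limma fit), or 1.37-fold. The differences were -0.54 in replicates 1 and 2 and -0.29 in replicate 3. Bag3, an HSF1 target that works with small heat shock proteins in selective autophagy, differed by 0.06 with a 95% interval of -0.14 to 0.26, and Bag1 by -0.08.

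The calls of Stip1 and Bag2 each rested on all 4 arrays of replicates 1 and 2, since neither passed the batch-term limma fit without any 1 of these, and neither passed it after each array was centred on its median. With the replicate number as a block and the same prior, adjusted p was 0.0818 for Stip1 and 0.0951 for Bag2 in limma. Each of these genes had 1 probe set, so neither call could be compared with another probe set.

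The mitochondrial chaperonin is formed by HSP60 (Hspd1) and its lid HSP10 (Hspe1), the pair whose shared upstream sequence is printed above. Hspd1 had log2 values of 14.20, 14.18 and 14.06 in normal and 14.01, 13.96 and 13.92 in low sodium, with separate groups. Hspe1 had 13.45, 13.39 and 13.55 in normal and 13.05, 13.13 and 13.57 in low sodium, and there replicate 3 did not follow. The differences were -0.18 and -0.21, and neither passed (adjusted p = 0.117 and 0.196 in the batch-term limma fit). The other above-median probe set of Hspe1 was lower in every replicate number, by -0.30, -0.53 and -0.07 in replicates 1, 2 and 3. Of the small heat shock genes, Hspb1 differed by -0.48 and Hspb8, whose product works with BAG3, by 0.10. Both varied widely between arrays, with 95% intervals of -1.27 to 0.31 and -0.89 to 1.09.

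Replicates 1 and 2 alone, with the intensity-following prior, called 13 of the 38 genes in limma, 11 lower and 2 higher. These are 34.2% of the members, against 14.9% of all genes, 7.6% in the lower and 7.27% in the higher direction. Calls are more frequent among bright genes, and of the 2354 bright genes 44.9% were called, against 10 of 28 such members (35.7%). In the lower direction the shares were 24.0% of the bright genes and 32.1% of the bright members. The 11 lower genes were Hspa8, Hspa4, Hspa4l, Stip1, Dnaja1, Dnajc2, Cct5, Cct7, Hspd1, Hspe1 and Bag2, and the 2 higher were Ahsa1 and Dnajb4. In replicate 3, which this fit did not use, 6 of the 13 had the same sign.

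Groups that did not overlap were found in 8 members in the lower direction, against 9.07% of all genes, and in 2 in the higher direction, against 8.44%. Among the bright genes these shares were 15.2% and 14.2%, and among the 28 bright members 6 were lower (21.4%) and 1 higher (3.57%). The 8 were Hspa14, Stip1, Dnaja1, Dnajb1, Dnajc7, Cct8, Hspd1 and Bag2, and the 2 were Hspa2 and Ahsa1. Of the 38 members 18 were lower in all 3 replicate numbers (47.4%, against 20.7% of all genes and 32.7% of the bright ones), and 3 were higher in all 3. A limma model that lets the difference between the media vary between the batches found it to vary in 7 members, against 10.1% of all genes, with a single array per medium in replicate 3 assumed to vary like the others. The 7 were Ahsa1, Dnajb4, Dnaja2, Pfdn5, Hspa4, Hspe1 and Cct7. All of them but Dnajb4 are bright genes, and the share among all bright genes was not counted for this model.

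**Figure D4:**
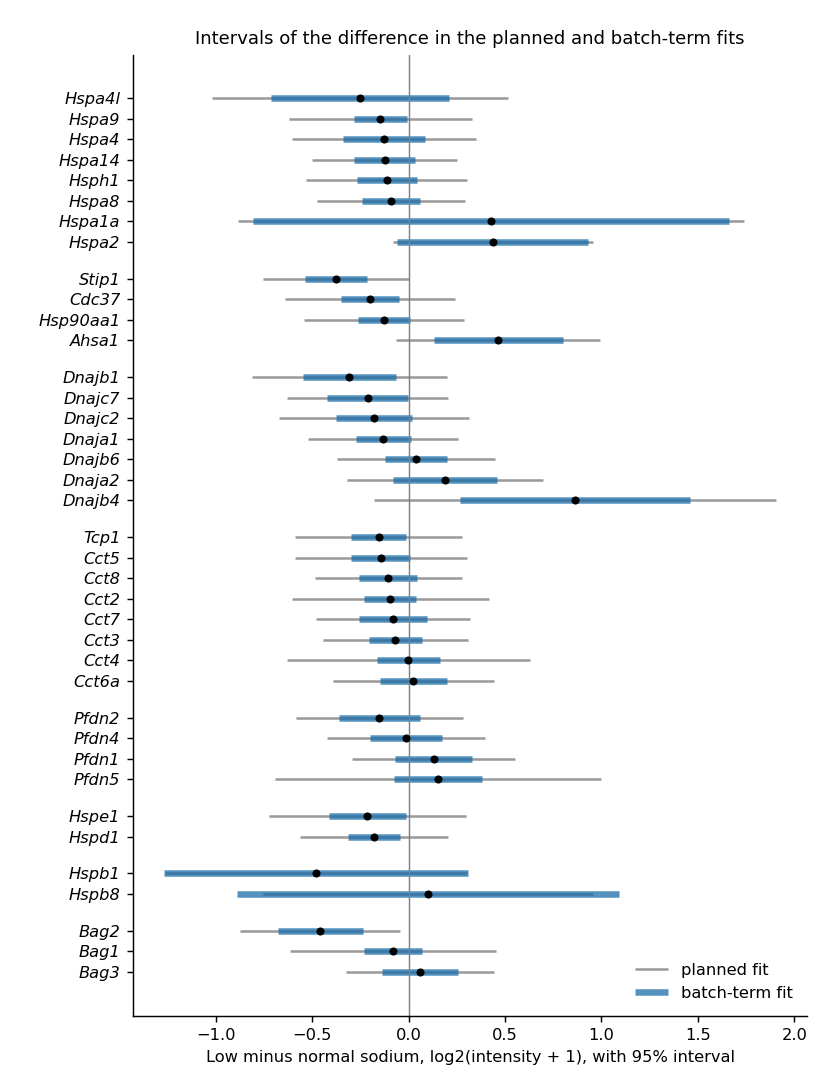
Low-minus-normal difference (black points) of the 38 measured genes on the log2(intensity + 1) scale (horizontal), with the 95% interval of the planned fit (thin grey) and of the batch-term fit (thick blue). The TRiC intervals of the batch-term fit stay between -0.30 and 0.20, and those of the dim Hspa1a, Hspb1 and Hspb8 are the wide ones.

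Other genes of the folding network were looked up from lists set by name. Of 28 measured co-chaperones, counted with Hspa1b, 4 fell and 0 rose in the batch-term fit, and the median difference was -0.14. The shares of all genes that passed, against which this and the next lists are read, were 3.81% lower and 3.78% higher, and 11.3% and 11.5% among bright genes. Fkbp4, a prolyl isomerase that joins HSP90 in steroid receptor complexes, fell by 0.70 ± 0.08 (SE, n = 3 against 3; adjusted p = 0.00476 in limma). Ppp5c, a phosphatase of HSP90 clients, fell by 0.46, and St13, the HSP70-interacting protein HIP, by 0.33. Hspa1b, the near-identical neighbour of Hspa1a, fell by 1.11 ± 0.26 in the same fit (adjusted p = 0.0425 in limma). Its differences were -0.58, -1.41 and -1.35 in replicates 1, 2 and 3. Its SDs of 1.32 in normal and 1.51 in low sodium include the low values of replicate 3 (6.15 and 4.81). Signal of Hspa1a and Hspa1b may not be separable on the array. With the replicate block and the same prior only Fkbp4 of the 4 passed in limma (adjusted p = 0.0244, against 0.0574 for Ppp5c, 0.0869 for St13 and 0.112 for Hspa1b). In the planned limma fit none of the related genes passed (0 of 107 measured entries).

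Of 29 other J-domain genes 2 fell and 1 rose. Dnajc3 and Dnajc9 had differences of -0.39 and -0.57, and Dnajb9, an ER member, rose by 0.55. Of 9 ER chaperones 3 fell and 0 rose, namely Pdia4 (-0.83), Sdf2l1 (-0.59) and Pdia6 (-0.36). Of 13 mitochondrial chaperones and proteases 0 passed. Of 20 TRiC clients and tubulin cofactors 3 fell and 1 rose. Among them the tubulin gene Tubb4b differed by -0.51 and Tubb2a by 1.08, while the TRiC client Cdc20 differed by -0.80 and the mitotic kinase gene Plk1 by -0.85. These 4 passed with the replicate block too, while of the J-domain genes only Dnajc9 and of the ER chaperones only Sdf2l1 did.

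Of 8 stress-inducible genes outside the heat shock family 5 rose and 0 fell, with a median of 0.80. Sqstm1, which encodes the autophagy adaptor p62, rose by 0.95 ± 0.08 (SE, n = 3 against 3; adjusted p = 0.00159 in the batch-term limma fit). Ddit3, the CHOP gene, rose by 1.73, Gadd45a by 1.16, Atf3 by 0.92 and Hmox1 by 0.67. The sizes differed between replicates 1 and 2 and replicate 3. In that order they were 1.06 and 3.07 in Ddit3, 1.47 and 0.52 in Gadd45a, and 1.09 and 0.59 in Atf3. For Hmox1 they were 0.45 and 1.12, and for Sqstm1 0.83 and 1.18. With the replicate block and the same prior Sqstm1 and Atf3 passed in limma, but Ddit3 (adjusted p = 0.0753), Hmox1 (0.0718) and Gadd45a (0.119) did not.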

How the data were processed

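RNA of 6 cultures, 3 per medium, was labelled with biotin and read on Affymetrix mouse arrays. The deposited intensities, on a linear scale, are given for 45101 probe sets; the tool listed is Partek, per the submitters' processing notes. How probes were summarised, and the genome build, are not given in the sources used here. A trimmed mean (2% cut at each end) was 499.8 on every array, so arrays had been scaled globally. The number of arrays limits the precision. Values were put on the scale of log2(intensity + 1), 64 control probe sets were left out, and of the other 45037 probe sets 34945 had 1 gene symbol in the platform annotation, 932 several and 9160 none; 34741 of the first were found in RefSeq (GRCm38.p6) to update symbols. All 18193 genes were fitted with limma 3.58.1 in R 4.3.3 (lmFit, eBayes, two-sided, Benjamini-Hochberg over all genes, adjusted p under 0.05), low minus normal sodium without a block. The fit with replicate 3 as a batch term and a trended prior was a listed alternative; the interaction model, and replicates 1 and 2 alone with that prior, were added after seeing the data. The fits were tested on simulated data with planted differences of 1 and 2 log2 units that did not vary between batches. Every member differed by less than that over all arrays, so the simulation did not cover differences of their size. The members, lists, fits and tests were chosen with earlier results of these data known. Members were printed array by array if they passed a fit, had separate groups by at least 0.5, or define their family; of each related list up to 5 with the smallest p were eligible for naming. Replicates are called biological in the labels.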

Additional observations from a re-analysis of the deposited data

Results flagged for a closer look

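In 7 members the low-minus-normal difference varied between the batches, by the interaction term of a limma model over all genes with an intensity-following prior, added after the data were seen. Given as replicate 3 minus replicates 1 and 2 on the log2 scale, it was 0.75 in Ahsa1 (adjusted p = 0.00242), -1.35 in Dnajb4 (adjusted p = 0.00613), 0.57 in Dnaja2, 0.44 in Pfdn5, 0.39 in Hspa4, 0.35 in Hspe1 and 0.28 in Cct7. Replicate 3 holds 1 array per medium, so its spread was taken from the other arrays. Over all genes 10.1% passed this term, and the share among bright genes was not counted.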

How the results depend on the processing

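The planned limma fit called 0 members, and 21 of the 29 other settings also called 0. The batch-term fit with a trended prior called 2, also with a pseudocount of 16, quantile normalisation or the mean of all probe sets. Stip1 and Bag2 have 1 probe set each, so that mean leaves their values unchanged. The batch-term fit called 3 with dim genes left out, 0 with median centring, and 0 to 13 when 1 array was left out, with 13 without either replicate 3 array and 0 without any other. Replicates 1 and 2 alone with a trended prior called 13. The planned fit without 1 array called 0.

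Of the related genes the planned fit called 0, a trended prior 1, the batch-term fit 19, and replicates 1 and 2 alone with a trended prior 40. The batch-term fit called 17 with a pseudocount of 16, 21 after quantile normalisation, 11 after median centring, 29 without dim genes, 13 with the mean of all probe sets, and 8 to 41 with 1 array left out (10 and 9 without normal sodium replicates 1 and 2, 8 and 10 without low sodium replicates 1 and 2, 41 and 40 without the replicate 3 arrays).

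With the replicate number as a block 0 members were called, with either prior, and 0 related genes, or 9 with a trended prior. Deviations from the group means correlated at 0.101, 0.0795 and 0.237 between arrays of the same number, the second under 0.1, so the numbers were not taken to pair the arrays. Among brighter genes they were 0.391, 0.381 and 0.551, all above 0.1. In these brighter genes normal sodium replicate 2 correlated at 0.393 with low sodium replicate 1. For normal sodium replicate 1 with low sodium replicate 2 the value was 0.351. Arrays of replicates 1 and 2 thus correlated about as well across numbers as within them. The values above 0.1 therefore cannot show that replicates 1 and 2 were paired by number, and a pairing is not settled. Over all genes normal sodium replicate 2 correlated better with low sodium replicate 1 (0.0896) than with its own number.

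With 1 array left out the median difference of the members stayed between -0.13 and -0.07, HSP70 between -0.12 and -0.06, HSP90 and partners between -0.22 and -0.079, J-domain genes between -0.14 and -0.091, TRiC between -0.17 and -0.052, and prefoldin between -0.12 and 0.11. Counting Vbp1 and Pfdn6 as prefoldin, chosen after seeing the data, gave -0.015. With the mean of all probe sets the J-domain median was 0.035. That setting also turned the sign of Hspa14 (0.0435), Dnajc2 (0.18), Cct4 (0.040), Cct6a (-0.0064) and Cct8 (0.0549). It averages in dim probe sets, with mean log2 values of 2.46 in Dnajc2, 3.41 in Cct8, 4.62 in Cct4 and 3.33 in Hspa14. These dim probe sets differed by 1.24, 0.22, 0.74 and 0.14. The brightest probe set of Dnajc2 differed by -0.18, and Dnajc2 enters the J-domain median. Replicates 1 and 2 alone, with either prior, turned Dnaja2 (-0.003), Dnajb6 (-0.0084) and Hspb8 (-0.070). Leaving out 1 array turned the sign in 9 members, whose differences then ran from -0.011 to 0.90 in Hspa1a, -0.034 to 0.10 in Dnajb6, -0.22 to 0.018 in Cct2, -0.21 to 0.13 in Cct4, -0.027 to 0.0865 in Cct6a, -0.095 to 0.040 in Pfdn4, -0.17 to 0.32 in Pfdn5, -0.16 to 0.41 in Hspb8 and -0.22 to 0.038 in Bag1. The number of arrays limits all of these values, and signal near background limits those of Hspa1a and of the dim probe sets averaged in.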
